A study of Mus musculus with 16 samples.

Results

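The Eph receptors are the largest family of receptor tyrosine kinases in mammals. A set of 10 of their genes, Epha1, Epha2, Epha4, Epha5, Epha7, Ephb1, Ephb2, Ephb3, Ephb4 and Ephb6, were taken by symbol from a table of 55291 genes and followed through 4 mouse embryonic stem cell lines in 2 media. All 10 symbols were found, and 9 of the 10 reached the mean normalised count of 10 that was asked of a gene before it was tested, as 17757 genes did. The exception, Epha5, is given by its reads alone. The other Eph receptors, the ephrins that bind them and the proteins that carry their signal are described beside them.

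All 16 libraries came from E14Tg2a, a 129/Ola line grown without feeder cells in medium with serum. In each culture the endogenous CTCF, the architectural protein that anchors chromatin loops, carried an auxin-inducible degron, and a doxycycline-inducible transgene supplied CTCF. The transgene encoded the wild-type protein (WT) or a protein with 1 substitution, R342C, K365T or Q418R. Auxin (indole-3-acetic acid, 500 µM), which removes the endogenous protein, and doxycycline (1 µg/ml) were given in every group, for 2 days per the labels, so cells that keep their own CTCF form no group here. Cells of each line were kept in leukemia inhibitory factor (LIF), CHIR99021, an inhibitor of GSK3, and PD0325901, an inhibitor of MEK, or spent 3 days without these 3 additions. These media are called LIF and no LIF. Each of the 8 groups has 2 libraries. Each genotype is represented by 1 line, so line and genotype cannot be told apart. Nothing in the labels says whether replicates are separate cultures, so p-values measure the spread between these samples, which may be technical.

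Eph receptors are activated by ephrins on neighbouring cells, so the pathway works at cell contacts. EphA receptors chiefly bind the A ephrins, which are anchored in the membrane by a lipid, and EphB receptors chiefly bind the B ephrins, which cross the membrane. Signals run into both cells and act on adhesion, repulsion, the actin cytoskeleton and the sorting of cell populations. In the early embryo such sorting helps to keep tissues apart, and in the nervous system it guides axons.

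The libraries held 19721363 to 31935381 reads that could be recovered from the normalised counts. All 12 listed genes of the naive state fell and all 12 of the formative state rose after the change of medium in each of the 4 lines. Without LIF, the naive genes summed to 31218 normalised counts in K365T replicate 1, against 11509 to 14551 in the other 7 libraries. In WT no LIF replicate 2, structural RNA took 6.88% of the reads, against 2.26 to 5.05% in the other 15 libraries, and the endoderm list summed to 17625, against 7336 to 12048 in the other 7 no LIF libraries. For Eph receptors and ephrins, results that rest on 1 library are given with and without it. Other genes named below were not checked in this way. In the WT comparison of media 23.8% of all tested genes rose and 24.9% fell. Among the lists of other cell types, 6 of 8 tested neuroectoderm members rose and 0 fell in WT, with a median log2 difference of 1.81. Its sum was 2173 to 3218 in LIF and 4342 to 6371 without, with Neurog2, Hes5 and Olig2 too low to test. In the fibroblast list 5 of 7 tested members rose and 1 fell in WT, the median was 3.94, the sum was 2610 to 5190 in LIF and 2588 to 4347 without, and Lum, Col3a1 and Postn were too low to test. The part of other cells in the changes below was not tested. In these bulk libraries fewer cells of a type and less RNA per cell cannot be told apart.

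Promoters of 3 members are printed first, because the largest fall, the largest rise and the most regular smaller rise of the family belong to them. The windows are RefSeq's, on GRCm38.p6, from 250 bases before to 50 bases after the annotated start, read along the gene's strand. All 10 genes matched, with 11 windows of 300 bases. Epha4 is at chr1:77515039-77515338 on the minus strand, Epha1 at chr6:42373219-42373518 on the minus strand, and Ephb6 at chr6:41605261-41605560 on the plus strand. Capitals mark a match to 1 of 4 patterns searched on both strands.
Epha4: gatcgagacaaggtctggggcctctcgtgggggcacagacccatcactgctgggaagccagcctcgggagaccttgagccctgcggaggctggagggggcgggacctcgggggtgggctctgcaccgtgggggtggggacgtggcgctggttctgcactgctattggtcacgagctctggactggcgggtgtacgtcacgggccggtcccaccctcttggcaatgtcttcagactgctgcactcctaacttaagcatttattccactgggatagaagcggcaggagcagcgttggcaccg
Epha1: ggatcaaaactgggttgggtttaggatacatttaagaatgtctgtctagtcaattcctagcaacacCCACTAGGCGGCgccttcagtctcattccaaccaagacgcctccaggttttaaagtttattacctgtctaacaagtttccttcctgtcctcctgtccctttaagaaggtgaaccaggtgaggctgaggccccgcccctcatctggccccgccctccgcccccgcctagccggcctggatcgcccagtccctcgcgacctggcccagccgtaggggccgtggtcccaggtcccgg
Ephb6: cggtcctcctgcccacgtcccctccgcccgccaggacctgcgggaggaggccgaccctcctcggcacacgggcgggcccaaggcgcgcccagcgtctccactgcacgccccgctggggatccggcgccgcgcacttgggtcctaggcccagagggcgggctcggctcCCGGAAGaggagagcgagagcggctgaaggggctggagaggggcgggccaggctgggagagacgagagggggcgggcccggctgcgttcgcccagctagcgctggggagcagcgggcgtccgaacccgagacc

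The patterns were a core of the CTCF motif (CC, 3 free bases, AGG, 1 free base and GGC), TTCCNGGAA, which STAT3 downstream of LIF can bind, CTTTGAT, which TCF/LEF factors downstream of GSK3 can bind, and CCGGAAG, which ETS factors downstream of MEK can bind. The Epha1 window holds CCACTAGGCGGC, a match to the CTCF core, 184 to 173 bases before the start. That core is present in 3.43% of 32851 promoter windows of this length. The Ephb6 window holds the ETS pattern 83 to 77 bases before the start, and 8.86% of all windows hold it. No pattern matched in the Epha4 window, where 64% of the bases are G or C and 17 CpG occur. Only these 2 of the 10 genes had a match, and the STAT and TCF/LEF patterns occur in 1.15% and 3.73% of all windows. A match describes letters in the window, and no binding was measured in these samples.

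The make-up of the 10 listed genes differed between the media. They were compared per length, as TPM (reads scaled for gene length and depth). The 10 genes together gave 259.5 to 333 TPM in the 8 LIF libraries and 130.9 to 257.4 TPM in the 8 no LIF libraries. These ranges did not overlap, by a narrow margin that depends on the list. Epha8, which is not in it, had 0.289 to 0.626 TPM in LIF and 13.5 to 20.3 without, and with it added the ranges would overlap. Epha4 gave 49.9 to 64.6% of the sum of the 10 in LIF, more than any other member in each LIF library. Without LIF it gave 2.98 to 5.63%. Epha1 went the other way, from 0.103 to 0.585% in LIF to 19.3 to 58.0% without. The B receptors Ephb3 and Ephb4 gave a median of 12.1% and 12.2% of the sum in LIF and 13.3% and 21.3% without, and Epha2 gave a median of 12.8% in both media. These shares are relative, so a receptor's share can rise while its own level stays.

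**Figure D1:**
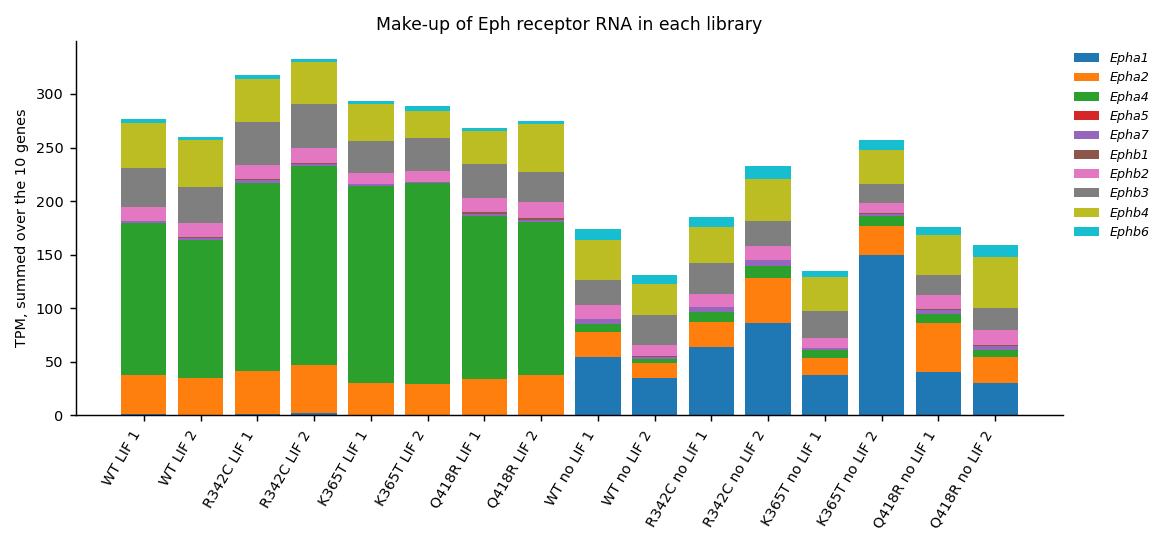
TPM of the 10 Eph receptor genes stacked for each of the 16 libraries, with the 8 LIF libraries on the left and the 8 no LIF libraries on the right. Epha4 fills 49.9 to 64.6% of each LIF bar and at most 5.63% of each no LIF bar, where Epha1 takes 19.3 to 58.0%.

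Between the media, 4 of the 9 tested receptors passed the test in WT, 2 higher and 2 lower without LIF, where 48.8% of all tested genes passed, 23.8% higher and 24.9% lower. In R342C 5 of 9 passed, 3 higher and 2 lower, where 47.2% of all genes passed, 23.3% higher and 23.9% lower. K365T had 4 of 9, 2 higher and 2 lower, beside 44.7% of all genes, 21.6% higher and 23% lower. Q418R had 5 of 9, 3 higher and 2 lower, beside 46.5% of all genes, 23% higher and 23.5% lower. The number of receptors that changed was therefore near the background of a response in which nearly as many genes passed as not. With the replicate number as a block within each line, 7 of 9 passed in WT (3 higher, 4 lower), as did 10000 of the 17757 genes. That block was added after seeing the data. The test was limma's moderated test on log2(normalised count + 4), two-sided, with Benjamini-Hochberg adjustment over the 17757 genes and a threshold of 0.05. A normalised count is a gene's read count divided by 1 size factor per library, and the added 4 makes the log2 differences of low genes smaller than those of their means. The median log2 difference of the 9 receptors was -0.43 for WT, -0.17 for R342C, 0.05 for K365T and -0.22 for Q418R, beside medians of -0.016 to -0.00168 over all tested genes.

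**Figure D2:**
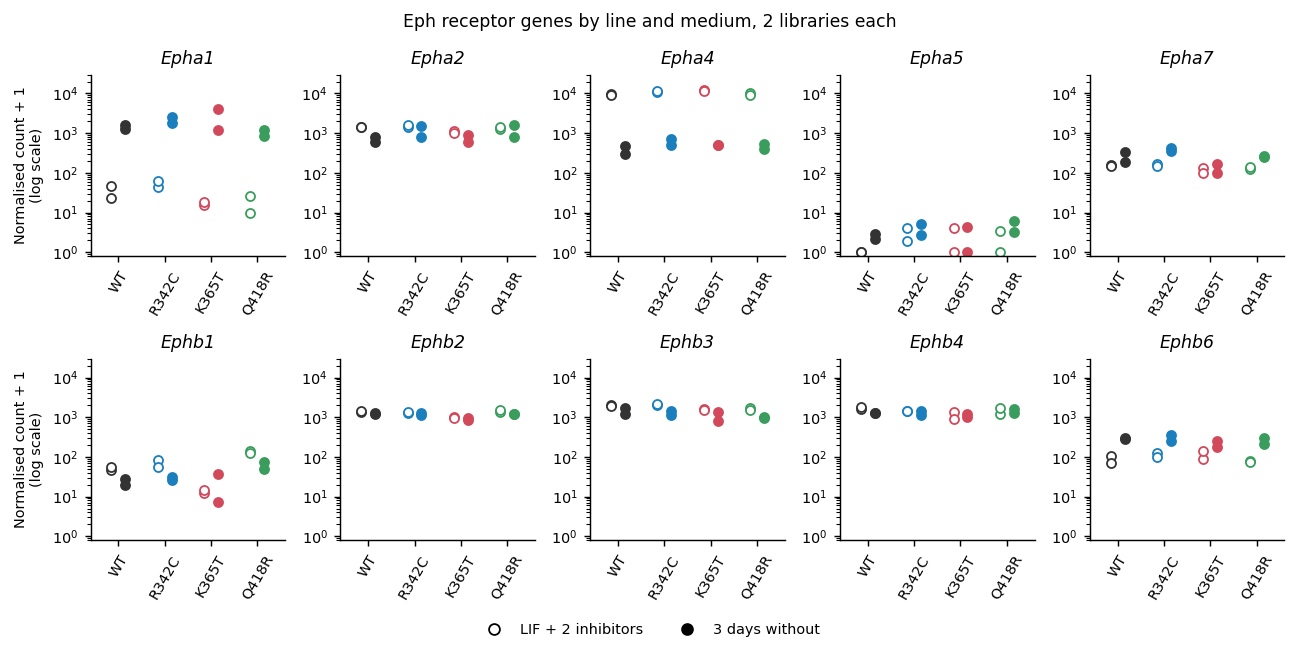
Normalised counts of the 10 receptor genes, 1 panel per gene, in the 4 lines, with 1 point per library, open in LIF and filled without, on a log axis of the count plus 1. Epha4 lies between 9083 and 12054 in LIF and between 290.7 and 694 without, and Epha1 between 8.96 and 59.6 in LIF and between 867 and 4087 without.

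Epha4, a receptor that binds both A and B ephrins and is known from axon guidance and the segmenting embryo, fell in every line. Its gene lies on the minus strand at chr1:77367185-77515088 (mm10). In WT the libraries held 9622 and 9083 normalised counts in LIF and 462 and 290.7 without, 24.8-fold lower in the means. R342C had 11137 and 11635 against 508 and 694, and K365T had 12054 and 11293 against 488 and 490. The Q418R libraries held 10086 and 9253 against 527 and 400.3. All 8 LIF libraries thus stood above all 8 no LIF libraries, and the mutant lines were 18.9-fold (R342C), 23.9-fold (K365T) and 20.9-fold (Q418R) lower.

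The log2 difference of Epha4 was -4.66 in WT with an SE of 0.19 and an adjusted p of 3.86e-10 by limma. The mutant lines gave -4.25 (R342C), -4.57 (K365T) and -4.38 (Q418R), with adjusted p between 7.84e-10 and 1.11e-09. Leaving out single libraries kept the difference between -4.99 and -4.03. By TPM, the median over the libraries was 164.2 in LIF and 8.11 without.

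Epha1, the receptor for which the family is named (after a hepatocellular carcinoma line that makes erythropoietin), rose in every line from a low level. In WT the libraries held 45.2 and 22.7 normalised counts in LIF and 1641 and 1272 without. R342C had 44.1 and 59.6 against 1847 and 2588. K365T had 14.4 and 17.4 against 1174 and 4087, and Q418R had 25.0 and 8.96 against 1200 and 867. The 8 LIF libraries lay between 8.96 and 59.6 and the other 8 between 867 and 4087, so the media did not overlap.

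The Epha1 means were 42.9-fold (WT), 42.8-fold (R342C), 165-fold (K365T) and 60.8-fold (Q418R) higher. In log2 the differences were 5.32 (SE 0.49, adjusted p = 6.9e-07), 5.31, 6.79 and 5.72, and the other 3 adjusted p lay between 8.89e-08 and 7.32e-07. The K365T value leans on replicate 2 without LIF, which held the highest Epha1 count of the 16 libraries. It was 5.89 without that library and 7.69 without replicate 1, the library with the high sum of naive genes. In Q418R it was 6.30 without LIF replicate 1 and 5.14 without LIF replicate 2, where only 9 reads were recovered. The part of the naive genes in the K365T spread was not tested.

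A neighbour shares part of the Epha1 locus. The gene lies on the minus strand at chr6:42358487-42373268 (mm10), and Zyx, which encodes the focal adhesion protein zyxin, lies on the plus strand at chr6:42349630-42360213. Of the 3928 exonic bases of Epha1, 236 (6.01%) are also exonic in Zyx, and the antisense gene 2010310C07Rik overlaps as well. Zyx held 627 and 458 counts in WT LIF and 3765 and 4083 without. Its log2 differences were 2.86 (WT), 2.88 (R342C), 2.16 (K365T) and 2.76 (Q418R), each below that of Epha1. Whether the counting used strand is not given in the sources used here, and how many Epha1 reads belong to its neighbours was not tested.

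Ephb6, a receptor whose kinase domain is inactive, rose in every line from a low level. In WT its 105.9 and 70.2 normalised counts in LIF became 298.6 and 285.1 without. R342C had 126.7 and 98.7 against 250.5 and 349, K365T 86.2 and 137.5 against 173.9 and 245.1, and Q418R 77.4 and 73.7 against 208.8 and 297.4. The libraries of the 2 media did not overlap within any line, and the gap was smallest in K365T.

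The log2 difference of Ephb6 was 1.71 in WT with an SE of 0.29 and an adjusted p of 0.00022 by limma. R342C gave 1.37, K365T 0.90 and Q418R 1.67, with adjusted p of 0.00135, 0.0215 and 0.000282. The K365T call was lost without LIF replicate 1, where the difference was 0.57 (adjusted p = 0.208), and without no LIF replicate 2, where it was 0.65 (adjusted p = 0.155). The gene lies on the plus strand at chr6:41605482-41620509 (mm10), and no other gene of the annotation overlaps it.

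Epha7, a receptor best known for repulsion in the developing brain, rose in R342C and Q418R. In R342C the counts went from 166 and 144.3 to 347 and 421, a log2 difference of 1.28 (SE 0.29, adjusted p = 0.00214). In Q418R they went from 123.9 and 139.4 to 246 and 265.9, a difference of 0.94 (adjusted p = 0.0155). The Q418R call was lost without LIF replicate 1 (adjusted p = 0.084) and without no LIF replicate 2 (adjusted p = 0.0766).

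In WT the Epha7 counts were 155.8 and 145.9 in LIF and 336.9 and 185.2 without, and the difference of 0.71 missed the threshold (adjusted p = 0.0548). Without WT no LIF replicate 2, the library with the most structural RNA, it was 1.14 (adjusted p = 0.00876), and edgeR, DESeq2 and the replicate block within each line (adjusted p = 0.0425) called it with all libraries. In K365T the counts were 130.4 and 95.5 against 98.0 and 166.4, which overlap, and the difference was 0.19 (adjusted p = 0.638). The difference between the K365T and WT responses of Epha7 was -0.53 with an SE of 0.41 (adjusted p = 0.712), so the lines were not shown to differ in it.

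Epha2 and Ephb3 were lower without LIF in part of the lines. Epha2, which binds ephrin-A1 and is common in epithelial cells, fell in WT, from 1443 and 1388 to 808 and 596 counts, a log2 difference of -1.02 (SE 0.31, adjusted p = 0.0125). That call was lost without WT LIF replicate 1 (adjusted p = 0.0592) and without WT no LIF replicate 2 (adjusted p = 0.101). R342C gave -0.50, K365T -0.53 and Q418R -0.26, none past the threshold. Their libraries without LIF lay far apart, at 798 and 1502 (R342C), 603 and 907 (K365T) and 1563 and 792 (Q418R). In R342C the difference was -0.95 (adjusted p = 0.032) without no LIF replicate 2. In Q418R it was -0.75 without no LIF replicate 1 and 0.22 without no LIF replicate 2, so its sign rests on 1 library.

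Ephb3, known with Ephb2 from the ordering of cells along the intestinal crypt, fell in 3 lines. The counts went from 2074 and 2135 to 1393 and 1167 (R342C), from 1607 and 1536 to 1324 and 794 (K365T) and from 1713 and 1505 to 934 and 983 (Q418R). The log2 differences were -0.72 (adjusted p = 0.00954), -0.61 (adjusted p = 0.0244) and -0.74 (adjusted p = 0.00801), each with an SE of 0.20. In WT the counts were 2030 and 1936 against 1196 and 1735, and the difference of -0.46 missed the threshold (adjusted p = 0.0775). Without WT no LIF replicate 2 it was -0.73 (adjusted p = 0.0184), and with the replicate block within each line it passed (adjusted p = 0.037). The K365T call was lost in 6 of 17 alternatives, with an adjusted p of up to 0.327. The differences between a mutant's Ephb3 response and that of WT were -0.26, -0.15 and -0.28, each with an SE of 0.29.

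Single libraries also decided other Ephb3 calls. The R342C call was lost without LIF replicate 2 or no LIF replicate 2, and the Q418R call without LIF replicate 1.

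**Figure D3:**
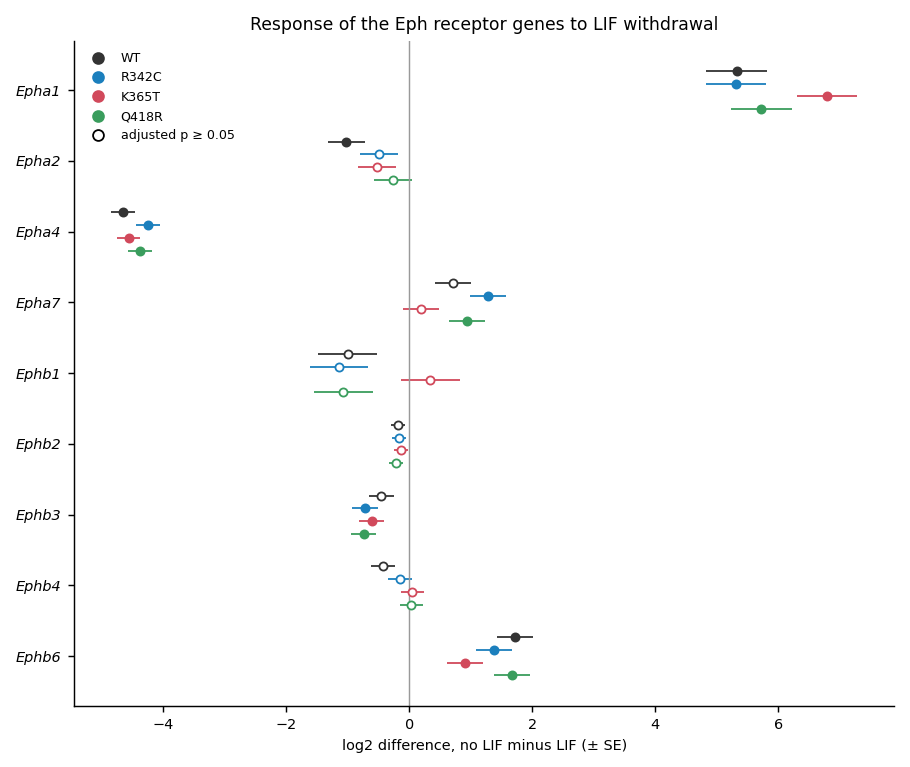
Log2 difference between no LIF and LIF for the 9 tested receptors in the 4 lines, with bars of 1 SE; filled points passed the threshold. Epha1 stands at 5.31 to 6.79 and Epha4 at -4.66 to -4.25, while the other 7 receptors lie between -1.15 and 1.71.

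Ephb2 and Ephb4 were abundant in both media, and Ephb1 was low in both. With the main settings (4 added, all 16 libraries, no replicate block) none of them passed the test between media in any line. Some alternatives called Ephb1 and Ephb4, as given below. Ephb2 held 1371 and 1419 counts in WT LIF and 1239 and 1214 without, a log2 difference of -0.18 (SE 0.12), and over the 4 lines the differences lay between -0.22 and -0.14. Its range was 953 to 1496 in the LIF libraries and 835 to 1266 in the others. Ephb4, the receptor of ephrin-B2 on veins, held 1648 and 1788 counts in WT LIF and 1303 and 1248 without, a difference of -0.43 (SE 0.19, adjusted p = 0.0781). It passed with the replicate block within each line (adjusted p = 0.0116) and with only the groups compared. In the mutant lines Ephb4 differed by -0.16, 0.05 and 0.03. Its gene overlaps Zan on the other strand.

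Ephb1, a receptor known from the crossing of retinal axons, stood at different levels in the lines. The LIF counts were 45.2 and 54.0 (WT), 81.0 and 54.0 (R342C), 11.1 and 13.3 (K365T) and 135.8 and 122.5 (Q418R). Without LIF they were 26.8 and 19.1, 25.0 and 30.8, 6.32 and 36.5, and 71.4 and 48.9 in the same order. K365T was lowest and Q418R highest in LIF, and only K365T did not have both LIF libraries above both others. Between the media the log2 differences lay between -1.15 and 0.34, each with an SE of 0.48, and none passed (adjusted p of 0.0974, 0.0621, 0.604 and 0.0794). With the replicate block within each line the falls of Ephb1 in R342C (adjusted p = 0.0301) and Q418R (adjusted p = 0.04) passed, and edgeR and DESeq2 called the former. The fall in R342C also passed with a pseudocount of 16. With only the groups compared, the falls in WT and R342C passed. Without K365T no LIF replicate 1, the K365T difference was 1.32 and passed (adjusted p = 0.011).

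Epha5 was nearly silent. Its libraries held 0 to 4 reads in LIF and 0 to 5 without, with a median of 0.5 and 2, so it was not tested and no fold is given.

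Of the other 4 Eph receptors of the mouse, Epha8 rose most. It held 24.9 and 24.9 counts in WT LIF and 683 and 871 without, and the means were 31.2-fold (WT), 44.3-fold (R342C), 45.8-fold (K365T) and 37.5-fold (Q418R) higher. The log2 differences were 4.75, 5.12, 5.18 and 4.90, each with an SE of 0.24 and an adjusted p of at most 3.01e-09 by limma. By TPM the Epha8 median went from 0.409 to 18.4, above the no LIF median of 8.11 for Epha4. Epha10, whose kinase is also inactive, rose in all 4 lines, by 1.37 (K365T) to 2.21 (WT). Its call was lost in R342C without no LIF replicate 1 and in K365T without LIF replicate 2 or no LIF replicate 1.

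Epha6 was low, with means of 4.05 and 14.4 counts in WT, and rose by 1.30, 1.62 and 1.63 in WT, R342C and Q418R. In K365T it differed by 0.20 (adjusted p = 0.744). Its WT call was lost without LIF replicate 2 or without either no LIF replicate, its R342C call without LIF replicate 1 or no LIF replicate 2, and its Q418R call without LIF replicate 2. Epha3 had 0 to 6 reads and was not tested.

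Among the ephrins, the ligands of these receptors, 4 of 8 rose and 2 fell in WT, where 48.8% of all tested genes passed. R342C had 3 that rose and 3 that fell (all genes 47.2%), K365T 4 and 0 (44.7%), and Q418R 5 and 0 (46.5%). Over the 4 lines, 21.6 to 23.8% of all tested genes were higher and 23 to 24.9% lower. Efnb2, a ligand of Ephb4 and Epha4, rose most, from 192.4 and 201 counts in WT LIF to 1790 and 998 without. Its log2 differences were 2.74 in WT (SE 0.26, adjusted p = 1.02e-06), 2.75 (R342C), 3.00 (K365T) and 3.20 (Q418R). Efna5, an A ephrin known from the retinal map, rose by 1.70, 1.32, 1.86 and 2.44 in the same order. By TPM, Efnb2 went from a median of 3.44 to 32.5 and Efna5 from 1.35 to 5.62.

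Efnb3 was higher without LIF in all lines, by 1.06 (WT), 0.70 (R342C), 2.34 (K365T) and 1.73 (Q418R). The R342C call (adjusted p = 0.0461) was lost with the replicate number as a block over all lines (adjusted p = 0.0539) and when any of the line's 4 libraries was left out, and the WT call without no LIF replicate 2. In K365T the no LIF libraries held 709 and 355.6 counts of Efnb3, and the difference was 1.85 without the first and 2.83 without the second. Efna1, the chief ligand of Epha2, rose in WT, K365T and Q418R by 0.90, 1.24 and 1.17, and in R342C it differed by 0.64 (adjusted p = 0.135). The WT call of Efna1 was lost when any of the line's 4 libraries was left out, the K365T call without no LIF replicate 2 and the Q418R call without LIF replicate 1 or no LIF replicate 2.

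Efnb1, a B ephrin on the X chromosome that directs boundaries in the skull, fell in WT and R342C. WT had 782 and 954 counts in LIF and 266.1 and 232.3 without, and R342C had 731 and 701 against 233.3 and 325.8. The log2 differences were -1.78 (SE 0.20, adjusted p = 5.76e-06) and -1.36. K365T had 749 and 525.5 against 488 and 439, a difference of -0.44 (adjusted p = 0.0992), and Q418R had 400.3 and 517 against 370.4 and 395, a difference of -0.25 (adjusted p = 0.348). The responses differed from that of WT by 1.34 in K365T (SE 0.29, adjusted p = 0.0547) and 1.53 in Q418R (adjusted p = 0.0613). Both missed the threshold in limma, and both passed in DESeq2 and with the replicate block within each line (adjusted p = 0.0175 and 0.0199). Without K365T LIF replicate 1 limma called the difference for K365T as well, and without K365T LIF replicate 2 the fall of Efnb1 in K365T passed (-0.69, adjusted p = 0.0329).

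The remaining A ephrins moved less. Efna4 fell in WT (-0.72) and R342C (-0.55). The WT call was lost without WT LIF replicate 1 or no LIF replicate 2. The R342C call of Efna4 was lost without either LIF replicate or without no LIF replicate 1, and over all alternatives the difference lay between -0.90 and -0.20. Efna3 fell in R342C (-0.85, adjusted p = 0.0372), a call lost without any 1 of the line's libraries. With the replicate block within each line, Efna3 also passed in WT (-0.64, adjusted p = 0.0232) and Efna4 in Q418R (-0.42, adjusted p = 0.0494). Efna2 rose in Q418R (0.75, adjusted p = 0.0198) and not past the threshold elsewhere, and that call was lost without LIF replicate 1 or no LIF replicate 2.

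**Figure D4:**
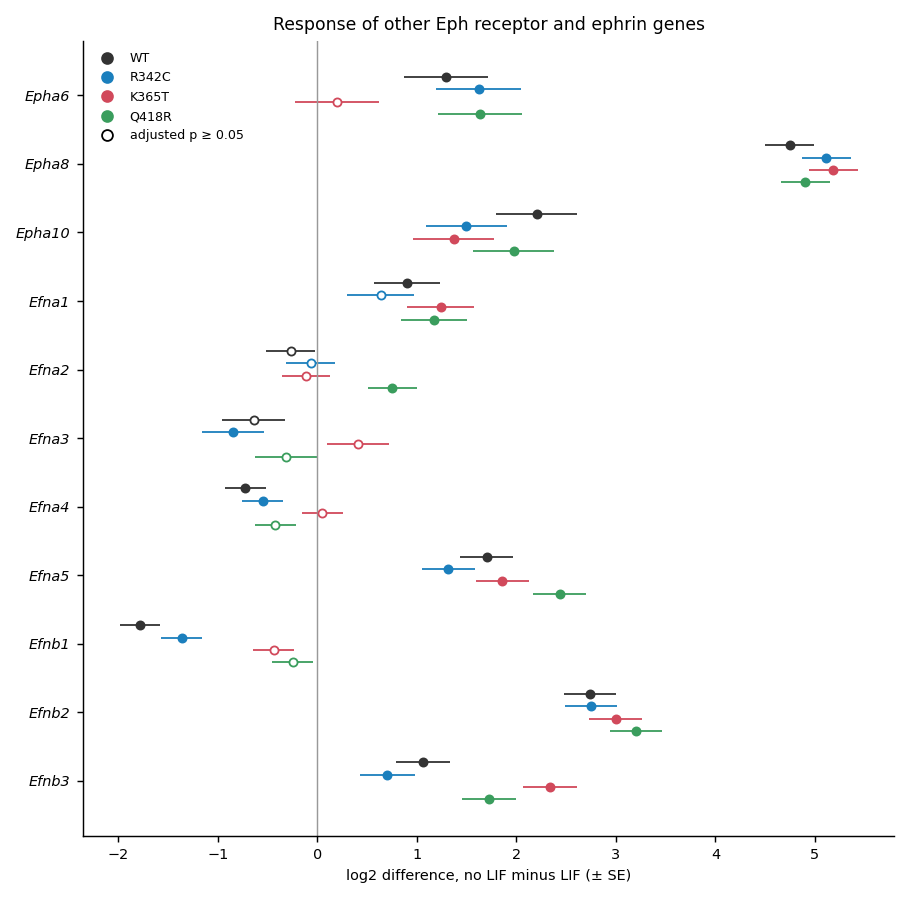
Log2 difference between no LIF and LIF for the 8 ephrins and the 3 other tested Eph receptors in the 4 lines, with bars of 1 SE; filled points passed the threshold. Epha8 lies at 4.75 to 5.18 and Efnb2 at 2.74 to 3.20, and Efnb1 spreads from -1.78 in WT to -0.25 in Q418R.

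Of 29 genes that act with Eph receptors inside the cell, all of them tested, 8 rose and 8 fell in WT. R342C had 8 higher and 10 lower, K365T 6 and 8, and Q418R 7 and 8. Of all tested genes 48.8% (WT), 47.2% (R342C), 44.7% (K365T) and 46.5% (Q418R) passed, so these counts were not far from the background. The largest changes in WT were rises. Vav3, an exchange factor that Eph receptors recruit, rose by 2.82 (SE 0.45), Grb7 and Grb10, adaptors with SH2 domains, by 2.03 and 1.93, and Ngef, the exchange factor ephexin, by 1.85. In K365T these 4 rose by 1.94, 2.43, 1.42 and 2.05. In Q418R the first 3 rose by 3.83, 2.65 and 2.18, and Ngef differed by 0.72 (adjusted p = 0.0571). The median over the list was 0.01 in WT beside -0.01 over all tested genes.

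Targets of the withdrawn agents were read beside the change of medium, in a WT response where 23.8% of all tested genes rose and 24.9% fell. Of 14 ERK targets 7 rose and 2 fell in WT, with Dusp6, a phosphatase that ERK induces, rising by 2.85. Of 14 Wnt targets 5 rose and 6 fell in WT, with Sp5 and Axin2 falling by 6.23 and 1.96 on the log2 scale. In K365T 8 Wnt targets rose and 5 fell, and Axin2 differed by -0.39 (adjusted p = 0.267). The median log2 difference of the Wnt list was -0.53 in WT, 0.01 in R342C, 1.05 in K365T and -0.73 in Q418R. The list thus moved both ways, and the 2 named genes do not stand for it.

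Between the lines in LIF, R342C differed from WT in 0 of 9 receptors, where 0.417% of all genes passed. In limma 0 had an unadjusted p below 0.05, and edgeR and DESeq2 called 0. Q418R differed from WT in 0 of 9 in LIF (background 4.25%), with 1 at an unadjusted p below 0.05 and 0 in edgeR and DESeq2. K365T was lower than WT in 3 of 9, Ephb1, Ephb2 and Ephb4, and higher in 0, where 11.1% of all genes passed and 4.66% were lower.

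In LIF, Ephb1 held 11.1 and 13.3 counts in K365T against 45.2 and 54.0 in WT, 4.07-fold lower (log2 -1.72, SE 0.48, adjusted p = 0.0323). Ephb2 held 998 and 953 against 1371 and 1419, 1.43-fold lower (-0.51, adjusted p = 0.0117). Ephb4 held 1313 and 880 against 1648 and 1788, 1.57-fold lower (-0.67, adjusted p = 0.0363). The libraries did not overlap in any of the 3 genes, which were picked by passing this test, so the separation is no further support. With WT LIF replicate 1, WT LIF replicate 2 or K365T LIF replicate 2 left out, 0 of these calls held, and without K365T LIF replicate 1 the call of Ephb1 was lost. By TPM, a scale on which the median of all genes in this comparison moved from -0.04 to 0.10, 0 of the 3 passed. Ephb1 is the member that stood highest in Q418R, 2.60-fold above WT in LIF, a log2 difference of 1.32 that missed the threshold (adjusted p = 0.152).

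Without LIF, 0 of 9 receptors differed between R342C and WT (background 0.479%), with 1 at an unadjusted p below 0.05 and 0 in edgeR and DESeq2. For Q418R the count was 0 of 9 (background 6.15%), with 3 at an unadjusted p below 0.05 and 0 in edgeR and DESeq2. Both counts changed without WT no LIF replicate 1. That fit leaves WT with replicate 2 alone, the library with the most structural RNA and the highest endoderm sum. Epha4, with 290.7 counts in that remaining library, then differed by 1.02 in R342C and 0.65 in Q418R, and Ephb3 by -0.85 in Q418R. Whether these differences reflect the lines or that library was not tested.

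K365T was lower than WT in 2 of 9 receptors without LIF, Epha7 and Ephb2, and higher in 0, where 14.7% of all genes passed and 7.33% were lower. Epha7 held 98.0 and 166.4 counts in K365T against 336.9 and 185.2 in WT, 1.97-fold lower (log2 -0.95, SE 0.29, adjusted p = 0.0423). Ephb2 held 938 and 835 against 1239 and 1214, 1.38-fold lower (-0.47, SE 0.12, adjusted p = 0.0162), so it was lower in K365T in both media. The Epha7 difference was -0.52 without WT no LIF replicate 1 and -0.58 without K365T no LIF replicate 1, and neither passed. In the fit without K365T no LIF replicate 1 the count was 3, with Ephb2 and Ephb3 (-0.86, adjusted p = 0.00922) lower and Epha1 higher (adjusted p = 0.0366). Ephb2 missed the threshold without either WT replicate or K365T no LIF replicate 2.

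**Figure D5:**
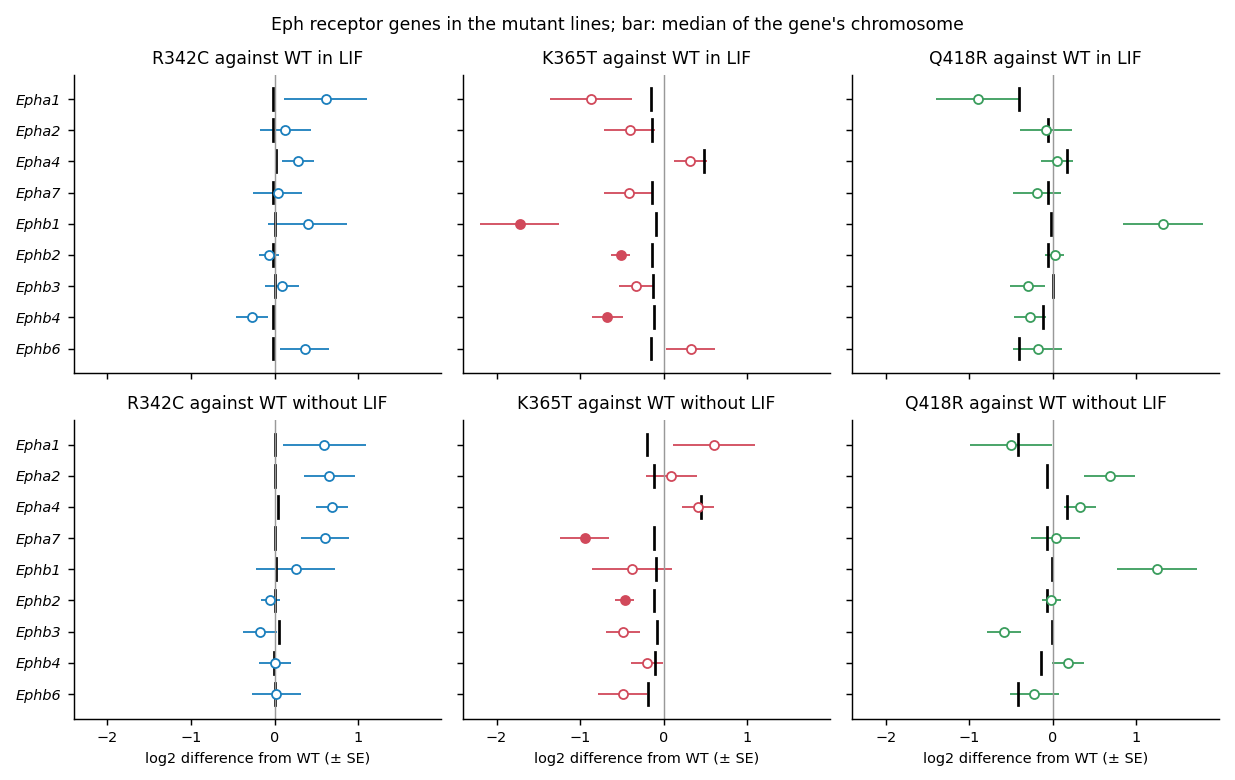
Log2 difference between each mutant line and WT for the 9 tested receptors in LIF and without LIF, with bars of 1 SE; filled points passed the threshold and black bars mark the median of all genes on the receptor's chromosome. Only K365T has filled points, Ephb1, Ephb2 and Ephb4 in LIF and Epha7 and Ephb2 without.

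Several chromosomes differed as a whole between the lines, and the receptors' differences are given beside them. In K365T the median gene of chromosome 1 was 0.48 above WT in LIF and 0.44 above without, on the log2 scale. Epha4, on that chromosome, differed by 0.32 and 0.41, neither past the threshold. In Q418R the median gene of chromosome 6 was at -0.41 in LIF and -0.42 without, Epha1 differed there by -0.90 and -0.50, and Ephb6 by -0.18 and -0.22. For the 3 receptors lower in K365T in LIF, the medians of their chromosomes in that comparison were nearer to 0, at -0.14 for Ephb2 on chromosome 4, -0.11 for Ephb4 on chromosome 5 and -0.09 for Ephb1 on chromosome 9. With each chromosome centred on its own median, 1 of the 3 LIF calls and 0 of the 2 calls without LIF passed. The part of chromosome copy number in these differences was not tested.

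The response itself was compared between each mutant line and WT as an interaction. R342C differed in 0 of 9 receptors (background 0%), K365T in 0 of 9 (background 0.659%) and Q418R in 0 of 9 (background 0.141%). In limma, 0 had an unadjusted p below 0.05 in any of the 3, and edgeR and DESeq2 called 0. The K365T count was 1 without K365T no LIF replicate 1, when Ephb1 differed by 2.33. The Epha1 response was 1.47 larger in K365T than in WT with an SE of 0.70 (adjusted p = 0.435), and the Epha4 responses differed from WT by 0.41, 0.09 and 0.27 with an SE of 0.27. These comparisons, like those of the mutants within a medium, share the WT libraries.

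The order of the groups is given with whether the 2 libraries of neighbouring groups overlapped, which is not a test. The share of all genes whose groups lie apart is not given. With the main settings, no mutant line differed from WT past the threshold in Epha1 or Epha4 in either medium. For Epha1 the 4 no LIF groups came first, with means in the order K365T, R342C, WT and Q418R. The 2 K365T libraries, at 1174 and 4087, lay on both sides of R342C and WT and overlapped with Q418R (867 to 1200). Its first place thus rests on 1 library. R342C, WT and Q418R did not overlap with each other without LIF, while each LIF group overlapped with the next. For Epha4 the order was K365T, R342C, Q418R and WT in LIF, and R342C, K365T, Q418R and WT without. The first 2 and the last 2 of the LIF groups overlapped, and without LIF each of the last 3 overlapped with the next. Without LIF, Q418R (400.3 to 527) also reached into R342C (508 to 694).

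The genes whose pattern was most like that of a receptor were sought among genes averaging 100 or more normalised counts by Pearson's r of log2(normalised count + 4) over the 16 libraries, which share their medium and size factors. Epha4 was closest to Nfatc2ip (r = 0.996) and Mtm1 (0.996), and Epha1 to Foxi3 (0.987) and Pdk1 (0.986). Ephb6 was closest to Cend1 and Pm20d2 (both 0.954), Ephb3 to Slk (0.968) and Hebp1 (0.967), and Epha7 to Ldha (0.946) and Ccdc88c (0.934). The rest were lower, with Ephb2 closest to Usf3 (0.928) and Zcchc24 (0.926), Epha2 to Arl5a (0.915) and Pdcd10 (0.905), Ephb1 to Hdac1-ps (0.912) and Snhg17 (0.903), and Ephb4 to Ulk3 (0.830) and Pltp (0.825). None of these neighbours was itself an Eph receptor.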

How the data were processed

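Total RNA was read in 16 libraries (8 groups of 2), after ribosomal RNA depletion and a stranded kit per the labels' protocols. The submitters' processing notes name Trim Galore, STAR, DESeq2 and mm10. Versions, the counting tool, the annotation and the use of strand are not given in the sources used here. The authors deposited normalised counts, a signal in which each library is divided by its own size factor, and, in a second table, TPM. Dividing each column by the value of 1 read gave whole numbers within 0.05 for 100% of values, 19721363 to 31935381 reads per library.

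Log2(normalised count + 4) was fitted over all 16 libraries with limma 3.58.1 in R 4.3.3 (8 group means, eBayes with trend) for 17757 genes with a mean of at least 10. The 13 contrasts were each adjusted by Benjamini-Hochberg with a threshold of 0.05. The fit was tested on simulated data. Alternatives were a pseudocount of 1 or 16, a filter of 50 or none, TPM with 0.1 added, TMM and upper-quartile scaling, edgeR 4.0.16 and DESeq2 1.42.0 on recovered reads, a replicate block, only the groups compared, chromosome centring and each library left out. Gene positions are from GENCODE M21 and promoters from RefSeq.

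The labels do not say what the replicate numbers mark. Deviations from the group means correlated between same-numbered LIF and no LIF libraries of each of the 4 lines (r of 0.357 to 0.422), and in 10 of 24 pairs of groups from different lines r was over 0.1 (range -0.52 to 0.543). The sign was the same in all 4 lines, but the largest values between lines exceeded those within lines in size. Whether the numbers pair libraries within a line was thus not settled, and calls that need such a block depend on it. A replicate block within each line (4 residual degrees of freedom) was added after seeing the data for the comparisons between media.

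The 10 receptors and all lists were chosen with earlier results of these data known. All 10, the other Eph receptors and the ephrins are named. Of every other list up to 4 members past the threshold are named by their change in WT, and for likeness the closest 2 genes. Sp5, Axin2, Dusp6 and the signalling genes named for a mutant line were chosen after their values were seen, and other marker lists (mesoderm, trophectoderm, endothelium and blood) are given with the observations.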

Additional observations from a re-analysis of the deposited data

How the results depend on the processing

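The counts of receptors called moved under some settings. Fewer samples enter where only the groups compared are fitted or a library is left out, and the cause of the other moves was not tested. Between the media, 4 of 9 in K365T became 2 with only the groups compared. With 1 library left out the counts were 3 to 5 in WT, 4 to 5 in R342C, 2 to 5 in K365T and 3 to 5 in Q418R. For K365T against WT in LIF, 3 became 1 without a filter, 0 by TPM, 1 with chromosome centring and 0 to 2 with 1 library left out. For K365T against WT without LIF, 2 became 1 without a filter, 0 by TPM, 1 with upper-quartile scaling, 0 with only the groups compared, 0 with chromosome centring and 1 to 3 with 1 library left out. For Q418R against WT in LIF, 0 became 1 with only the groups compared and stayed 0 with a library left out. Without LIF the counts for R342C and Q418R, both 0, were 0 to 1 and 0 to 2 with a library left out. The interaction counts were 0 to 1 in K365T and 0 in R342C and Q418R. TPM moved the median of all genes in R342C against WT without LIF from 0.01 to 0.17. Over receptors and ephrins, single-gene comparisons called in both the main fit and an alternative, or uncalled in both, were counted as unchanged. Under alternatives other than left-out libraries, 3148 were unchanged, 31 gained a call and 35 lost it. With a library left out, 1199 were unchanged, 18 gained a call and 63 lost it. The unchanged include those uncalled in both, of which 153 changed sign, so they do not give the share of calls that held. No called difference changed sign. With the replicate number as a block over all lines the counts of receptors called were the same as without it in all 13 contrasts, 4, 5, 4 and 5 between the media, and 3 and 2 for K365T against WT. With the replicate block within each line, chosen after seeing the data, they were 7, 6, 4 and 6 between the media and 0 in the 3 interactions, and beyond the calls given in the report it changed none for receptors and ephrins. Depth limits the folds of Epha1, which had 9 to 64 reads per library in LIF, and of Ephb1, which had 6 to 123 over both media.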

Other observations

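The marker lists of further cell types were mixed, in a WT response where 23.8% of all tested genes rose and 24.9% fell. Of 9 tested mesoderm and streak genes 4 rose and 4 fell in WT, with sums of 667 to 824 normalised counts in LIF and 410.6 to 849 without, and Mesp1 was too low to test. Of 10 tested endoderm genes 6 rose and 3 fell in WT, with Afp too low to test. Of 8 tested trophectoderm genes 3 rose and 3 fell in WT, with sums of 3940 to 6350 in LIF and 2012 to 3604 without, and Elf5 was too low to test. Of 4 tested endothelial and blood genes 0 rose and 2 fell in WT, with sums of 3353 to 9856 and 1550 to 7245, and Cdh5, Ptprc, Hba-a1 and Gata1 were too low to test. K365T had sums of 9856 and 8862 in LIF and 7245 and 6331 without, against 3353 to 5209 and 1550 to 2533 in the other lines. It was higher than WT in 2 of the 4 genes in LIF and 3 without, where 11.1% and 14.7% of all genes passed. The reason for this difference was not tested.

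Of the 29 genes that act with Eph receptors inside the cell, K365T differed from WT in 2 in LIF (1 higher, 1 lower), where 11.1% of all genes passed, and in 3 without LIF (1 higher, 2 lower), where 14.7% did. Q418R differed in 1 in LIF, which was higher, where 4.25% of all genes passed, and in 3 without LIF, all higher, where 6.15% did. In LIF, Kalrn, an exchange factor, was higher in K365T by 0.65, Chn2, a chimaerin, differed by -0.82, and Ngef was higher in Q418R by 1.10. Without LIF, Nck2 was higher in K365T by 0.46, and Itsn1 and Ptpn11 differed by -0.43 and -0.39. Tiam1, an exchange factor for Rac, was higher in Q418R without LIF by 1.18 (SE 0.20, adjusted p = 0.00454 by limma), as were Grb10 by 0.92 and the scaffold Grip1 by 1.56. Efnb1 was lower in Q418R than in WT in LIF, 400.3 and 517 against 782 and 954 counts (log2 -0.92, adjusted p = 0.0226), a call lost without either WT replicate or Q418R LIF replicate 1. Without LIF it was higher in K365T than in WT, 488 and 439 against 266.1 and 232.3 counts (0.89, adjusted p = 0.0119), a call lost without WT no LIF replicate 2. Transcripts counted to Ctcf, which may stem from the endogenous gene, the transgene or both, lay between 5292 and 8585 in all 16 libraries.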
